A study of Homo sapiens with 60 samples.

Results

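LGR6, LGR4, LGR5, RNF43, ZNRF3 and AXIN2 encode the R-spondin receptors, the membrane ubiquitin ligases and the scaffold protein through which cells set their response to WNT. These 6 genes of the 60675 in the expression table were chosen by name, and the group was assembled because LGR6 was lower with 5 of the extracts described here. The LGR6 levels and differences are therefore a description at every dose and carry no test. All 6 genes passed the filter on low counts, which left 17190 genes to test.

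SW1783, an established human astrocytoma line, was grown for 24 h with a vehicle or with a herbal extract, and RNA was sequenced from 60 libraries. The vehicle is given as 0.1% DMSO in the sample labels and as 2% in the design text. The labels describe all the extracts as aqueous, and the labels of the extract samples name no DMSO. Comparisons with the vehicle thus set aqueous extracts against DMSO, and a part of the solvent in the differences was not tested. All 60 labels name batch B and a second sequencing, so neither term separates the groups. The herbs were Citri Unshius Pericarpium, Cimicifugae Rhizoma, Bupleuri Radix and Aconiti Lateralis Radix Preparata, and the formulas were Yijung-tang, Banhasasim-tang and Bojungikgi-tang, each at 500 µg/mL (high), 100 µg/mL (medium) and 20 µg/mL (low dose). The vehicle and each dose of the first 6 extracts had 3 libraries, whereas Bojungikgi-tang had 1 library per dose. No allele, transgene or other agent is named for any group, and all groups are cultures of the same line. The labels do not say that replicates came from separate cultures, so a p-value here reflects how far these libraries scatter, and that scatter may be technical.

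Library totals were 18.9 to 36.4 M counts. The sample codes placed the vehicle in a set of its own, Citri with Cimicifugae (set 5), Bupleuri with Aconiti (set 6), Yijung-tang with Banhasasim-tang (set 7) and Bojungikgi-tang in set 8. Against the vehicle, code set and treatment cannot be told apart, while doses of an extract and the 2 extracts of a set share a set. The same 3 vehicle libraries serve in all 18 vehicle comparisons. Low-dose Citri replicate 3 and high-dose Cimicifugae replicate 3 stood apart from their groups, with root mean square deviations of 0.133 and 0.141 on the log2 scale beside at most 0.0952 in the other libraries. Levels of the genes tested are in CPM, counts scaled to a common library size with TMM factors. Levels of cell type markers are in CPM of the library total, without TMM factors. Of 12 astrocyte and glial markers, 5 had a median of at least 1 CPM, SLC1A3, SOX9, NES, VIM and CD44. AQP4, ALDH1L1 and SOX2 had a median of 0, GFAP and S100B each of 0.103 CPM, and all 6 mesenchymal markers were at 1 CPM or more, so several defining astrocyte markers were at or near 0 in these cells.

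WNT ligands bind frizzled receptors and LRP co-receptors at the membrane, which stops the destruction of beta-catenin and lets it act with TCF and LEF factors on target genes. RNF43 and ZNRF3 are related ubiquitin ligases that remove frizzled receptors from the surface, and R-spondins, held by LGR4, LGR5 or LGR6, draw these ligases away and so raise the response. AXIN2 is a scaffold of the complex that destroys beta-catenin and is itself a target of the pathway, which makes it a feedback inhibitor and a common readout.

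The RefSeq promoter table (GRCh38.p14) held windows for 3 of the 6 genes: LGR6 (3 starts), RNF43 (2 starts) and LGR4 (1 start). The LGR6 windows are shown because the gene group was chosen for LGR6. Each runs 5′ to 3′ on the plus strand over the 250 bases before a start. Capitals mark CTTTG or its reverse complement CAAAG, the core of the sequence that TCF and LEF factors bind.
LGR6 start 1, chr1:202193549-202193798: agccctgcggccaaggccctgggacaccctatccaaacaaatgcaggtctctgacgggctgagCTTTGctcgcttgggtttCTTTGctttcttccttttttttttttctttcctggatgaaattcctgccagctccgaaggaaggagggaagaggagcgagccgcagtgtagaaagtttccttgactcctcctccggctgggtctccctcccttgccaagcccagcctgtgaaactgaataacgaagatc
LGR6 start 2, chr1:202203462-202203711: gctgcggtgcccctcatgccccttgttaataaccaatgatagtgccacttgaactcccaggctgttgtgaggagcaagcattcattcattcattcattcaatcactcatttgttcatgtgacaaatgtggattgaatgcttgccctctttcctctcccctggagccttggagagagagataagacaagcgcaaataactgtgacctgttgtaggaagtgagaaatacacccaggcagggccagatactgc
LGR6 start 3, chr1:202213829-202214078: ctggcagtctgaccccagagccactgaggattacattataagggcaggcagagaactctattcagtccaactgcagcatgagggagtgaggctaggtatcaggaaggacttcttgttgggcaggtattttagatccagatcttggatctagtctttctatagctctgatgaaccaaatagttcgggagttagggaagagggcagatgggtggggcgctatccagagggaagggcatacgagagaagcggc
The window of start 1 lay before the annotated gene and held 2 CTTTG matches, and neither was followed by the A or T of the longer forms CTTTGA and CTTTGT, which contain the shorter core. The windows of starts 2 and 3 lay within the annotated span of the gene and held no match on either strand. Both RNF43 windows held 1 match of the longer form, and the LGR4 window held no core. Of 35116 promoter windows of this length, 42.07% held CTTTG and 22.79% held CTTTGA or CTTTGT on either strand, so a match is common.

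On GRCh38, with GENCODE 29, LGR6 (ENSG00000133067) lies at chr1:202193901-202319781 on the plus strand, LGR4 (ENSG00000205213) at chr11:27365961-27472775 on the minus strand and LGR5 (ENSG00000139292) at chr12:71439770-71586310 on the plus strand. RNF43 (ENSG00000108375) lies at chr17:58352500-58417595 and AXIN2 (ENSG00000168646) at chr17:65528563-65561647, both on the minus strand, and ZNRF3 (ENSG00000183579) at chr22:28883592-29057487 on the plus strand. All 6 are protein-coding. Per kb of exon, LGR4 had the highest level in the vehicle, 14.05 ± 0.38 CPM per kb (SD, n = 3). ZNRF3 followed with 3.94 ± 0.19, AXIN2 with 1.94 ± 0.0873 and LGR6 with 1.25 ± 0.134 CPM per kb. LGR5 and RNF43 were close to the limit of detection, at 0.11 ± 0.0481 and 0.106 ± 0.022 CPM per kb. The R-spondin receptor of these cells by level was therefore LGR4, with LGR6 well below it and LGR5 lowest. RNF43 values are uncertain, because other genes overlap its exon bases. SUPT4H1 on the same strand overlaps 1.905% and had 59910 counts over all libraries beside 1387 of RNF43. AC004687.2 overlaps 57.64% on the same strand, and its GENCODE 29 identifier was not among the counted genes. TSPOAP1-AS1 overlaps 20.27% on the opposite strand. Of the 60675 counted genes, 57055 had an identifier in GENCODE 29, so these positions and lengths may differ from the release used for counting.

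LGR6, a receptor of R-spondins, was lower in every high-dose group with replicates than in the vehicle, and Aconiti gave the lowest level. The vehicle libraries stood at 5.94, 6.25 and 5.06 CPM, from 118, 145 and 99 counts. The Aconiti libraries stood at 0.690, 0.672 and 0.649 CPM at the high dose, from 12, 15 and 14 counts, at 2.40, 1.89 and 2.10 CPM at the medium dose and at 3.72, 4.74 and 3.28 CPM at the low dose. No Aconiti library at any dose reached the lowest vehicle library. The group means were in order of dose, with 68.09%, 36.97% and 11.67% of the vehicle mean left at the low, medium and high dose. The sum of 41 high-dose counts had an exact Poisson 95% interval of 29.42 to 55.62, which covers counting error only.

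In the code set shared with Aconiti, Bupleuri had 2.77, 2.77 and 3.11 CPM of LGR6 at the high dose, 4.76, 4.11 and 4.55 CPM at the medium dose and 5.65, 5.44 and 5.52 CPM at the low dose. Its high and medium doses lay wholly below the vehicle, and its low dose overlapped it. Banhasasim-tang had 2.23, 1.91 and 2.31 CPM at the high dose, 2.67, 2.41 and 3.44 CPM at the medium dose and 4.53, 4.31 and 4.94 CPM at the low dose. All 9 Banhasasim-tang libraries lay below the vehicle. Yijung-tang, in the same set, had 4.86, 3.67 and 3.33 CPM at the high dose, 5.90, 4.47 and 5.85 CPM at the medium dose and 7.09, 6.28 and 5.93 CPM at the low dose. Only its high dose lay wholly below the vehicle, with its highest library at 4.86 CPM and the lowest vehicle library at 5.06 CPM.

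Citri had 2.48, 2.67 and 2.57 CPM of LGR6 at the high dose, 5.41, 5.26 and 5.42 CPM at the medium dose and 5.11, 6.51 and 5.20 CPM at the low dose. Cimicifugae had 1.49, 2.37 and 1.73 CPM at the high dose, 5.10, 4.99 and 4.98 CPM at the medium dose and 5.87, 4.98 and 5.31 CPM at the low dose. With both extracts the level was low at the high dose only, and the medium and low doses overlapped the vehicle. The single Bojungikgi-tang libraries stood at 2.83, 3.06 and 5.56 CPM at the high, medium and low dose, from 88, 83 and 172 counts with Poisson 95% intervals of 70.58 to 108.4, 66.11 to 102.9 and 147.3 to 199.7. Its high and medium doses were thus at 49.31% and 53.32% of the vehicle mean, without a replicate.

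**Figure D1:**
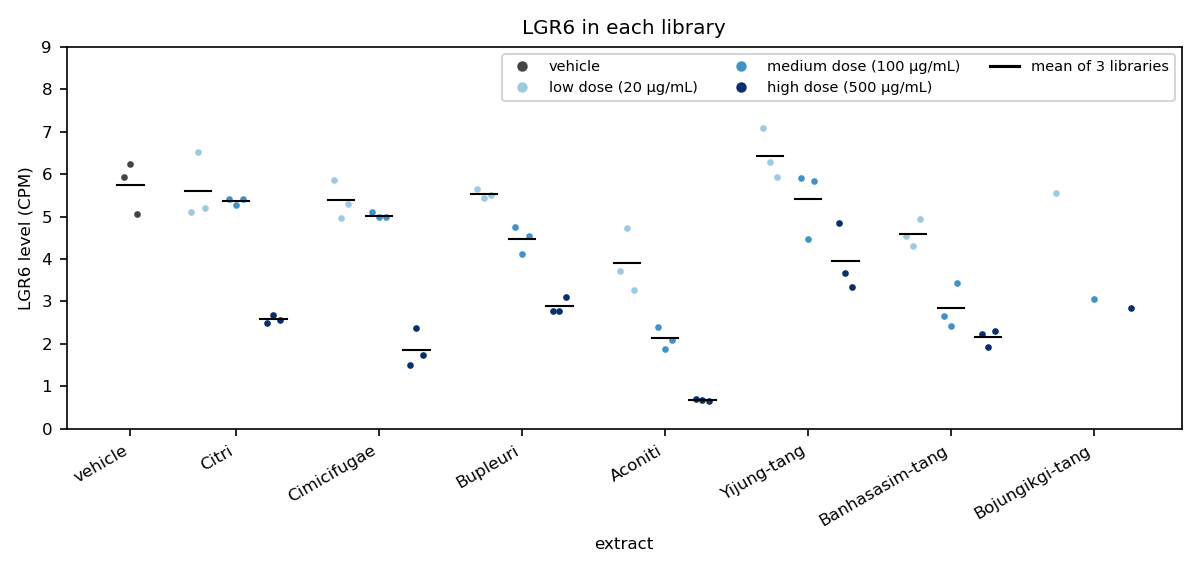
LGR6 in CPM (vertical axis) for each library (points) by extract and dose, with a bar at the mean of 3 libraries and single points for Bojungikgi-tang. The vehicle libraries lie between 5.06 and 6.25 CPM, and the high-dose Aconiti libraries lie between 0.649 and 0.690 CPM.

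As log2 differences of the high dose from the vehicle, LGR6 was at -3.10 ± 0.19 (SE) with Aconiti, -1.64 ± 0.15 with Cimicifugae and -1.43 ± 0.14 with Banhasasim-tang. Citri gave -1.16 ± 0.14, and Bupleuri, at -1.0 ± 0.14, was the fifth and smallest of these. The choice counted 5 extracts and gave no threshold, and Yijung-tang, the sixth, gave -0.56 ± 0.13. Within each extract, and so within a code set, the high dose stood below the low dose by log2 differences of -2.54 with Aconiti, -1.54 with Cimicifugae, -1.12 with Citri, -1.10 with Banhasasim-tang, -0.94 with Bupleuri and -0.72 with Yijung-tang. These differences share the high-dose libraries with the choice and have no test. With Citri, Cimicifugae and Bupleuri the size was thus much the same whether the vehicle or the low dose was the reference. With Aconiti and Banhasasim-tang the low dose itself was already below the vehicle. With Yijung-tang the low-dose mean was 111.9% of the vehicle mean, with overlapping libraries.

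In 11 of the 18 extract groups all 3 LGR6 libraries lay below all 3 vehicle libraries: all 6 at the high dose, 3 at the medium dose (Bupleuri, Aconiti and Banhasasim-tang) and 2 at the low dose (Aconiti and Banhasasim-tang). Of all genes tested, 20.8% (Citri), 20.1% (Cimicifugae), 13.3% (Bupleuri), 31.4% (Aconiti), 20.5% (Yijung-tang) and 17.5% (Banhasasim-tang) met the same condition at the high dose. At the medium dose the shares were 11.8%, 15.1%, 8.8%, 21.8%, 14.5% and 14.5% in the same order, and at the low dose 9.01%, 10.9%, 7.84%, 10.6%, 14% and 13.1%. Ordered by mean, the 19 groups ran from low-dose Yijung-tang at 6.43 ± 0.595 CPM and the vehicle at 5.75 ± 0.615 CPM down to high-dose Aconiti at 0.671 ± 0.0205 CPM. Of the 18 pairs of neighbours in this order, 13 overlapped. The 5 breaks without overlap came after medium-dose Citri (5.36 ± 0.0882 CPM), after medium-dose Cimicifugae (5.02 ± 0.0684 CPM), after low-dose Aconiti (3.91 ± 0.75 CPM), after high-dose Citri (2.57 ± 0.0944 CPM) and after high-dose Cimicifugae (1.86 ± 0.453 CPM). The vehicle, the low doses of Yijung-tang, Citri, Bupleuri and Cimicifugae and the medium doses of Yijung-tang and Citri thus formed 1 run of overlapping neighbours.

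At the medium dose LGR6 differed in level between the extracts of 2 code sets. Bupleuri had 4.48 ± 0.332 CPM and Aconiti 2.13 ± 0.256 CPM, a log2 difference of 1.08 ± 0.16. Yijung-tang had 5.41 ± 0.813 CPM and Banhasasim-tang 2.84 ± 0.536 CPM, a log2 difference of 0.91 ± 0.13. In both pairs the 3 libraries of 1 extract lay wholly above those of the other. Citri and Cimicifugae gave 0.09 ± 0.13 with a 95% interval of -0.16 to 0.35. There too the Citri libraries (5.26 to 5.42 CPM) lay wholly above those of Cimicifugae (4.98 to 5.10 CPM), so this gap does not set the other pairs apart. The share of all genes with such a gap was not counted between extracts. The choice of LGR6 named no dose, so these values too have no test.

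LGR4 is the R-spondin receptor with the highest level per kb here. The vehicle libraries had 88.3, 91.7 and 87.1 CPM. High-dose Aconiti had 54.1, 55.5 and 55.1 CPM, high-dose Yijung-tang 68.6, 70.6 and 62.7 CPM and high-dose Banhasasim-tang 75.5, 72.9 and 73.2 CPM. High-dose Citri had 77.4, 76.7 and 77.0 CPM, and high-dose Cimicifugae 77.3, 78.2 and 73.1 CPM. These 5 groups lay wholly below the vehicle, whereas high-dose Bupleuri, at 87.4, 85.2 and 85.2 CPM, overlapped it. In the same 5 comparisons, 17.5% (Banhasasim-tang) to 31.4% (Aconiti) of all genes tested lay wholly below the vehicle.

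LGR4 fell against the vehicle with Aconiti by a log2 difference of -0.70 ± 0.041 (edgeR's quasi-likelihood test, Benjamini-Hochberg adjusted p = 1.4e-20) and with Yijung-tang by -0.40 ± 0.04 (adjusted p = 2.07e-11). Smaller falls were called with Banhasasim-tang at -0.27 (edgeR's adjusted p = 4.74e-07), Cimicifugae at -0.23 (7.79e-06) and Citri at -0.21 (5.21e-05), while Bupleuri stood at -0.05 (0.528). The same 5 extracts were called against their own low dose, with -0.67 for Aconiti (edgeR's adjusted p = 1.12e-19), -0.34 for Yijung-tang (2.48e-09), -0.28 for Cimicifugae (1.72e-07), -0.22 for Citri (2.83e-05) and -0.19 for Banhasasim-tang (0.000443). At the medium dose, 1 extract was called, Aconiti, with 67.5, 66.8 and 63.4 CPM and log2 differences of -0.44 to the vehicle (edgeR's adjusted p = 1.17e-12) and -0.40 to its own low dose (2.14e-11). So LGR4 and LGR6 both had lower means at each higher dose of Aconiti, and the differences were smaller for LGR4.

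Between the extracts of set 6, LGR4 was higher with Bupleuri than with Aconiti at the high dose by 0.65 (edgeR's quasi-likelihood test, Benjamini-Hochberg adjusted p = 2.57e-19), where 58.3% of genes were called. The medium dose gave 0.46 (edgeR's adjusted p = 2.88e-13), and the low dose 0.04 (0.845). The difference of high minus low dose itself differed between these 2 extracts by 0.60 ± 0.056 with a 95% interval of 0.49 to 0.71 (edgeR's adjusted p = 6.41e-13), in a comparison where 44% of genes were called. Yijung-tang was below Banhasasim-tang at the high dose by -0.13 ± 0.039 (edgeR's adjusted p = 0.00974), where 23.8% of genes were called. That call was lost without high-dose Yijung-tang replicate 3 (adjusted p = 0.155), without high-dose Banhasasim-tang replicate 1 (0.0549) and when the 2 groups were fitted alone (0.0984).

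LGR5, the stem cell receptor of the intestine and hair follicle, was near the limit of counting, with 14, 7 and 15 counts in the vehicle libraries (0.705, 0.302 and 0.767 CPM). High-dose Banhasasim-tang had 7, 6 and 3 counts (0.236, 0.209 and 0.128 CPM), wholly below the vehicle, as were 17.5% of all genes tested. Its LGR5 log2 difference of -1.55 ± 0.38 was the 1 LGR5 call against the vehicle (edgeR's quasi-likelihood test, Benjamini-Hochberg adjusted p = 0.00251). DESeq2 gave no adjusted p for LGR5 in this comparison. High against low dose, within a code set, called LGR5 with 0 of 6 extracts (lowest edgeR adjusted p = 0.138). High-dose Yijung-tang, at 0.626, 0.445 and 0.375 CPM, was above Banhasasim-tang by 1.27 ± 0.39 (edgeR's adjusted p = 0.0159). That second call was lost without high-dose Yijung-tang replicate 1 (0.102) or high-dose Banhasasim-tang replicate 3 (0.0727), without a filter on low counts (0.0639) and with the groups fitted alone (0.064). High-dose Aconiti, at -0.74, was not called (edgeR's adjusted p = 0.0866) and was called without vehicle replicate 2 (0.0142) or without high-dose Aconiti replicate 1 (0.0194).

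RNF43, the first of the ubiquitin ligases, stood at 0.906, 0.603 and 0.869 CPM in the vehicle, from 14 to 18.4 expected counts per library. High-dose Cimicifugae had 0.994, 1.31 and 1.57 CPM, and high-dose Aconiti had 1.38, 1.12 and 1.25 CPM. Both groups lay wholly above the vehicle, the opposite direction from the receptors. High-dose Citri, medium-dose Citri and high-dose Yijung-tang did so too without a call, and the share of all genes wholly above the vehicle was not counted. The high-dose log2 differences of 0.71 ± 0.26 with Cimicifugae and 0.66 ± 0.26 with Aconiti were called (edgeR's quasi-likelihood test, Benjamini-Hochberg adjusted p = 0.0269 and 0.0282), as was 0.65 ± 0.27 for high against low Aconiti (0.033). High-dose Citri at 0.64 (edgeR's adjusted p = 0.0701), Yijung-tang at 0.60 (0.0753), Bupleuri at 0.40 (0.46) and Banhasasim-tang at 0.05 (0.932) were not called. All 3 calls were lost with DESeq2 (adjusted p = 0.0643, 0.0683 and 0.0789), without a filter on low counts and with the groups fitted alone. They were also lost without vehicle replicate 2 (0.155 for Cimicifugae and 0.162 for Aconiti), without high-dose Cimicifugae replicate 3 (0.167, or 0.157 without both libraries that stood apart), without high-dose Aconiti replicate 1 (0.0829 with the vehicle as reference, 0.0962 with the low dose) or 3 (0.059 and 0.0688) and without low-dose Aconiti replicate 1 (0.144) or 2 (0.129).

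ZNRF3, the second ligase, had 27.3, 26.2 and 28.8 CPM in the vehicle. At the high dose it had 21.5, 23.9 and 23.7 CPM with Citri, 24.2, 23.8 and 21.9 CPM with Cimicifugae and 25.9, 23.9 and 26.0 CPM with Bupleuri. Aconiti had 24.0, 24.7 and 25.5 CPM, Yijung-tang 23.0, 24.5 and 23.5 CPM and Banhasasim-tang 23.7, 24.2 and 22.7 CPM. Every one of these high-dose libraries lay below the lowest vehicle library. At the high dose, 13.3% (Bupleuri) to 31.4% (Aconiti) of all genes tested lay wholly below the vehicle. Against the vehicle the high dose was called for Citri at -0.25 (edgeR's quasi-likelihood test, Benjamini-Hochberg adjusted p = 0.000579), Cimicifugae at -0.23 (0.000709), Banhasasim-tang at -0.22 (0.0028), Yijung-tang at -0.21 (0.00271) and Aconiti at -0.15 (0.0204), and not for Bupleuri at -0.12 (0.228). The medium dose of Aconiti at -0.14 (edgeR's adjusted p = 0.0467) and the low doses of Banhasasim-tang at -0.20 (0.0158) and Yijung-tang at -0.20 (0.0188) were called too.

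The ZNRF3 difference had no order of dose except with Citri. Its means were 91.83%, 89.21% and 84.02% of the vehicle at the low, medium and high dose, and its high-dose libraries lay wholly below its low-dose ones. The log2 difference from the vehicle was below 0 in 18 of 18 groups, between -0.25 and -0.09, and 16 of 18 groups lay wholly below the vehicle libraries. Per comparison, 7.84% (low-dose Bupleuri) to 31.4% (high-dose Aconiti) of all genes tested lay wholly below the vehicle. High against low dose gave -0.13 to 0.03 with 0 of 6 called by edgeR's quasi-likelihood test (1 at an unadjusted p under 0.05, 0 by DESeq2). With the extracts other than Citri the low doses stood below the vehicle about as far as the high doses did, and for this gene code set and treatment cannot be told apart. The calls of low-dose Yijung-tang and Banhasasim-tang and of both Aconiti doses were lost without vehicle replicate 3 (edgeR's adjusted p = 0.113, 0.108, 0.123 at the high and 0.215 at the medium Aconiti dose) and without a filter on low counts (0.0949, 0.0808, 0.109 and 0.189). Without vehicle replicate 1, low-dose Yijung-tang (0.0638), low-dose Banhasasim-tang (0.0552) and medium-dose Aconiti (0.0824) lost theirs. Leaving out treated libraries ended them as well: low-dose Yijung-tang replicate 2 (0.0601) or 3 (0.148), low-dose Banhasasim-tang replicate 1 (0.0847) or 3 (0.0605), high-dose Aconiti replicate 1 (0.0616) and medium-dose Aconiti replicate 2 (0.24) or 3 (0.122).

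AXIN2, the feedback target, fell at the high dose of all 6 extracts with replicates. The vehicle had 10.4, 10.4 and 9.61 CPM. High-dose Citri had 6.83, 7.17 and 5.84 CPM, Aconiti 5.87, 6.37 and 7.61 CPM and Yijung-tang 6.68, 8.42 and 8.06 CPM. Cimicifugae had 7.18, 8.37 and 8.06 CPM, Bupleuri 7.76, 8.79 and 7.91 CPM and Banhasasim-tang 8.00, 9.56 and 7.28 CPM. All 18 libraries lay below the lowest vehicle library, though 1 Banhasasim-tang library, at 9.56 CPM, came close to it. Of all genes tested, 13.3% (Bupleuri) to 31.4% (Aconiti) lay wholly below the vehicle at the high dose.

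AXIN2 differed from the vehicle on the log2 scale by -0.63 ± 0.099 with Citri (edgeR's quasi-likelihood test, Benjamini-Hochberg adjusted p = 2.99e-06), -0.61 with Aconiti (8.6e-07), -0.38 with Yijung-tang (0.00176) and -0.37 with Cimicifugae (0.00201). Bupleuri gave -0.32 (edgeR's adjusted p = 0.0312) and Banhasasim-tang -0.29 (0.0256). Against the low dose of the same extract, the fall was called with Aconiti at -0.55 (edgeR's adjusted p = 8.28e-06), Citri at -0.54 (5.14e-05) and Cimicifugae at -0.40 (0.00115), while Bupleuri at -0.28 (0.0878), Yijung-tang at -0.19 (0.165) and Banhasasim-tang at -0.19 (0.276) were not called. At the medium and low doses the differences from the vehicle were between -0.20 and 0.03, with 0 of 12 called by edgeR (1 at an unadjusted p under 0.05, 0 by DESeq2). AXIN2 was higher with Bupleuri than with Aconiti at the high dose by 0.29 ± 0.10 (edgeR's adjusted p = 0.0125), a call lost without high-dose Aconiti replicate 1 (0.0786) or high-dose Bupleuri replicate 2 (0.067). The Bupleuri fall was lost without vehicle replicate 1 (0.113) or 2 (0.121) or high-dose Bupleuri replicate 1 (0.146) or 3 (0.108), and the Banhasasim-tang fall without vehicle replicate 1 (0.0918) or 2 (0.0983) or high-dose Banhasasim-tang replicate 1 (0.0961) or 3 (0.176), without a filter on low counts (0.0585) and with the groups fitted alone (0.0563).

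**Figure D2:**
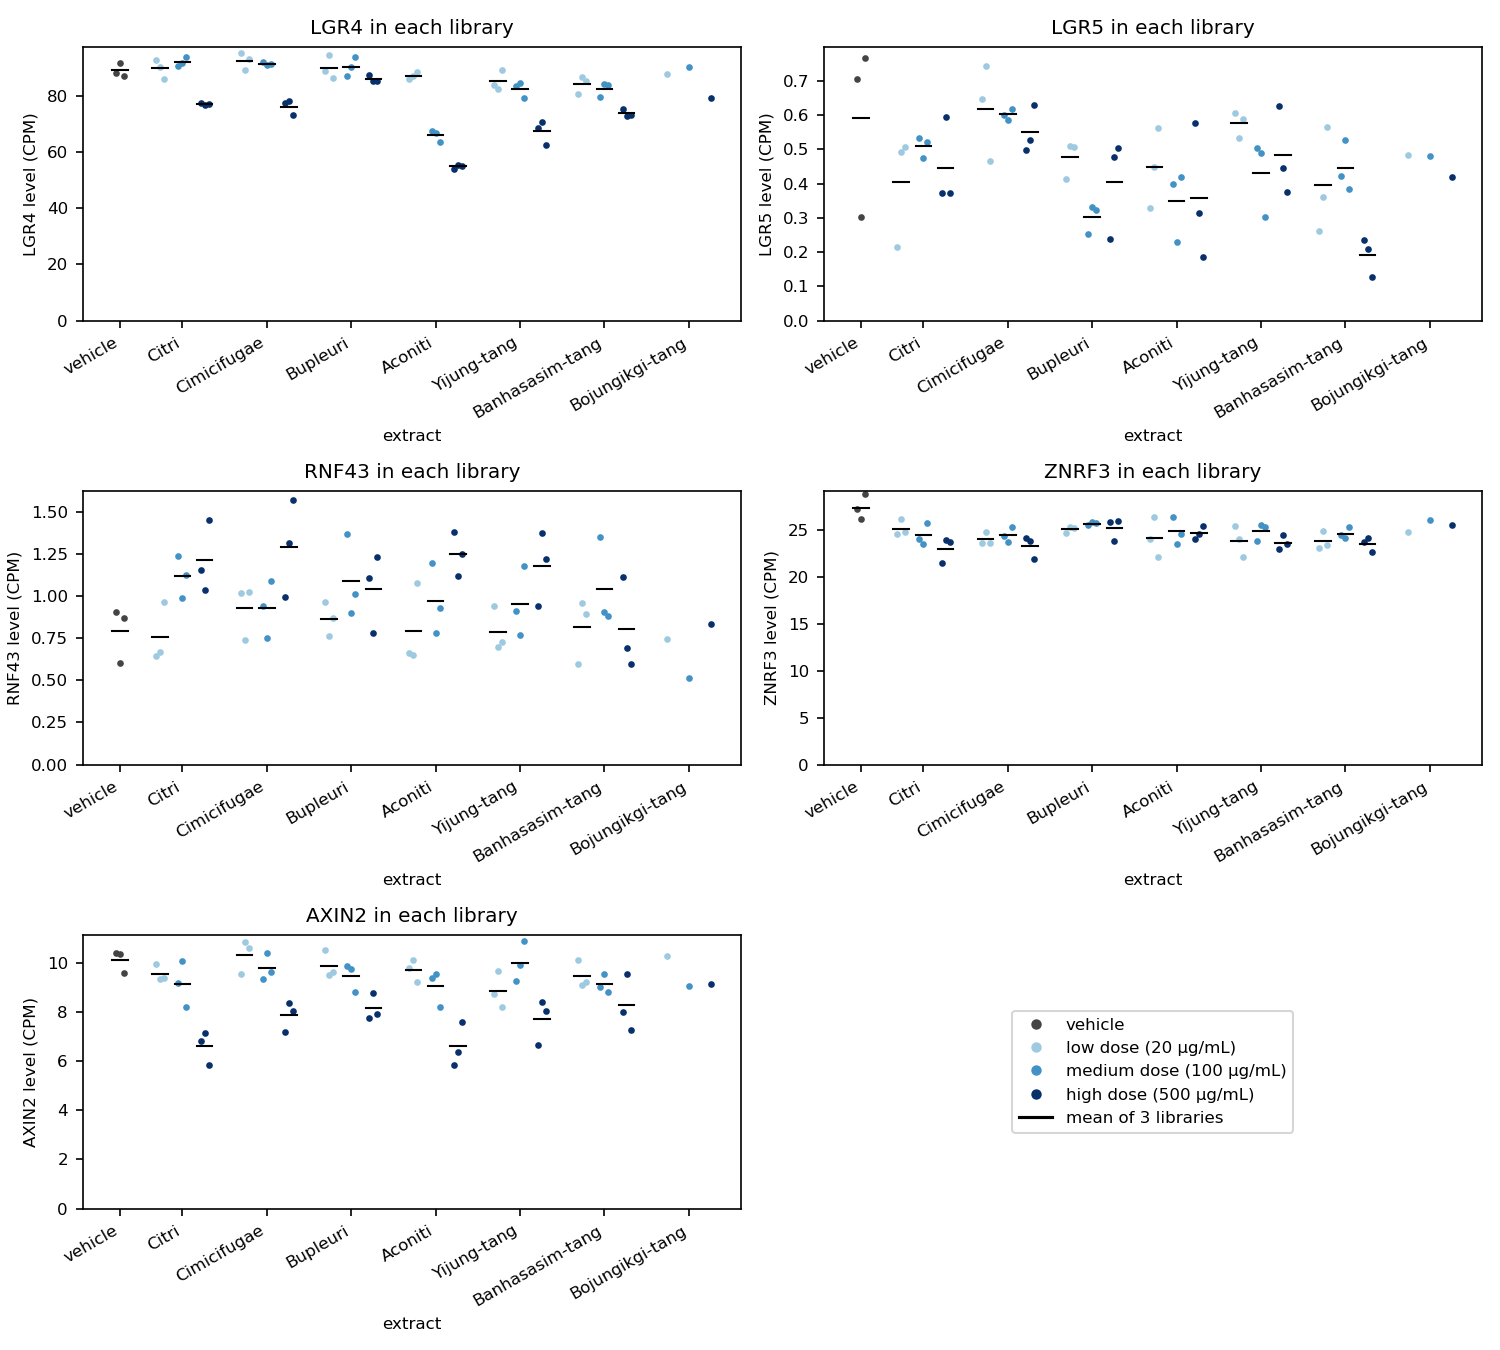
LGR4, LGR5, RNF43, ZNRF3 and AXIN2 in CPM (vertical axes, a scale for each gene) for each library (points) by extract and dose, with a bar at the mean of 3 libraries. High-dose Aconiti is lowest for LGR4, and the high-dose AXIN2 libraries of the 6 extracts with replicates lie below the vehicle.

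**Figure D3:**
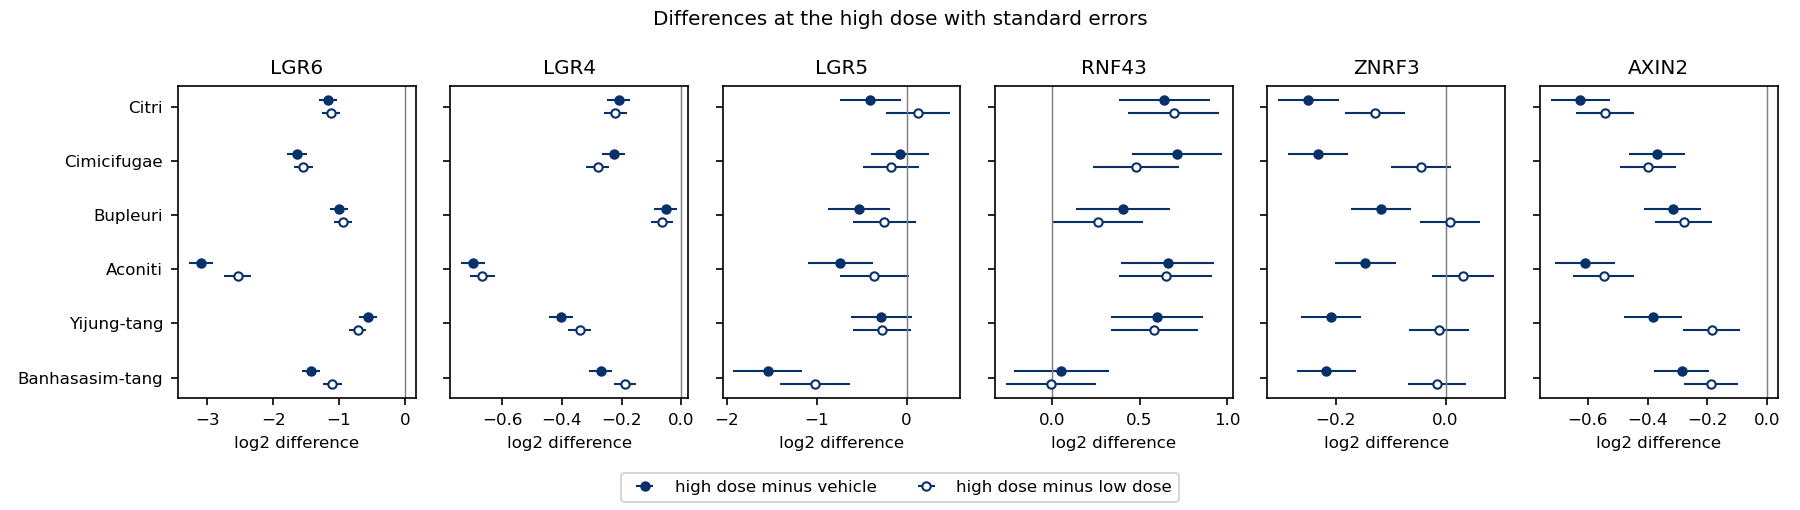
Log2 differences with their SE (horizontal axes, a scale for each gene) for 6 extracts, with filled points for high dose minus vehicle and open points for high minus low dose. For LGR4 the 2 references give much the same values, whereas for ZNRF3 the open points lie near 0.

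Of the 5 tested members, leaving out LGR6, the high dose against the vehicle called 3 with Citri, where 21.6% of all genes were called, 4 with Cimicifugae (32.5%), 1 with Bupleuri (7.02%), 4 with Aconiti (60.4%), 3 with Yijung-tang (32%) and 4 with Banhasasim-tang (16.8%). With Aconiti most of the genes tested were called, so that 4 of 5 members does not set these genes apart. At the medium dose, 2 were called with Aconiti (31.1%) and none with Citri (2.07%), Cimicifugae (6.63%), Bupleuri (0.413%), Yijung-tang (6.28%) or Banhasasim-tang (8.32%) by edgeR. At the low dose, 1 was called with Yijung-tang (6.38%) and 1 with Banhasasim-tang (5.75%), and none with Citri (1.88%), Cimicifugae (1.27%), Bupleuri (0.0756%) or Aconiti (2.19%). High against low dose called 2 with Citri (18.2%), 2 with Cimicifugae (25.1%), none with Bupleuri (4.37%), 3 with Aconiti (57.8%), 1 with Yijung-tang (21.7%) and 1 with Banhasasim-tang (6.67%). Medium against low dose called 1 with Aconiti (20.4%) and none with Citri (0.227%), Cimicifugae (0.105%), Bupleuri (0.0407%), Yijung-tang (0.116%) or Banhasasim-tang (0.506%). In each of these comparisons without an edgeR call, 0 to 2 of the 5 members had an unadjusted p under 0.05, and DESeq2, which gave no adjusted p for 1 to 3 of them, called 0.

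Between the extracts of a set, the high dose called 0 of 5 members for Citri against Cimicifugae (12.3% of all genes), 2 for Bupleuri against Aconiti (58.3%) and 2 for Yijung-tang against Banhasasim-tang (23.8%). The medium dose called 1 for Bupleuri against Aconiti (28.6%), LGR4, and none for the other 2 pairs (0.669% and 2.47%). The low dose called none in the 3 pairs, where 0.163%, 0.535% and 0.0873% of genes were called. The difference of high minus low dose called LGR4 for Bupleuri against Aconiti (44%) and no member for Citri against Cimicifugae (11.1%) or Yijung-tang against Banhasasim-tang (10.1%). Where no member was called by edgeR, 0 or 1 had an unadjusted p under 0.05 and DESeq2 called 0, with no adjusted p from DESeq2 for up to 3 members.

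Other measures differed from the vehicle in the same groups. With Aconiti the share of mitochondrial counts was 6.447 to 7.557% at the low, 10.56 to 10.84% at the medium and 8.995 to 9.29% at the high dose, beside 5.03 to 5.29% in the vehicle. The highest share was thus at the medium dose, where LGR4 was also called. At the high dose of the other 5 extracts with replicates it was between 5.062 and 8.209%.

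The marker sums below are CPM without TMM factors, so small differences between groups are not on the scale of the member levels. The summed level of the 6 mesenchymal markers, all detected, was 6045 to 6308 CPM in the vehicle and with Aconiti 5413 to 5777 at the low, 4082 to 4368 at the medium and 1540 to 1646 CPM at the high dose. At the high dose of the other 5 extracts it was between 4822 and 5789 CPM, also below the vehicle. The 5 epithelial markers, of which EPCAM had a median of 0, summed to 241.6 to 250.6 CPM in the vehicle and were lower at the high dose of every extract: 82.35 to 86.13 with Aconiti, 118.1 to 127 with Banhasasim-tang, 132.4 to 137.7 with Cimicifugae, 151.1 to 173 with Yijung-tang, 165 to 173.7 with Citri and 178 to 194.3 CPM with Bupleuri. The 5 neuronal markers summed to 149.3 to 156.3 CPM in the vehicle and with Aconiti to 92.88 to 101.3 at the medium and 55.19 to 55.56 CPM at the high dose. At high-dose Aconiti the 12 astrocyte and glial markers summed to 6974 to 7013 beside 7119 to 7488 CPM, the 5 immune markers to 179.7 to 191.3 beside 152 to 160.2 CPM and the 4 endothelial markers to 28.26 to 30.75 beside 28.36 to 29.92 CPM. The sums follow their most abundant genes: in the vehicle KRT18 had a mean of 227.1, VIM of 4366 and CD44 of 2810 CPM. A near-constant glial sum can therefore hide changes in SLC1A3 (5.578 to 42.14 CPM over all libraries) or NES (2.743 to 11.78 CPM). The part of these measures in the LGR6, LGR4 and AXIN2 differences was not tested. In bulk libraries, fewer cells that express a gene and less of its RNA per cell cannot be told apart.

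In the single Bojungikgi-tang libraries at the high, medium and low dose, LGR4 stood at 79.4, 90.4 and 87.9 CPM, ZNRF3 at 25.6, 26.1 and 24.8 CPM and AXIN2 at 9.15, 9.08 and 10.3 CPM. LGR5 stood at 0.419, 0.48 and 0.485 CPM and RNF43 at 0.837, 0.517 and 0.743 CPM. Of these genes, the high-dose library was below the lowest vehicle library for LGR4, ZNRF3 and AXIN2. The medium-dose library was below it for RNF43, ZNRF3 and AXIN2, and the low-dose library for ZNRF3. Each dose rests on 1 library, and the share of all genes below the vehicle was not counted here.

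The other parts of the pathway were read from lists of 100 genes, of which 70 were tested. Of each list, at most 2 genes are named by rule, those called in most of the 6 high-dose comparisons with the vehicle. How many calls such a gene had thus follows from that choice. Against the vehicle at the high dose, 20 of the 70 were lower and 6 higher with Citri, where 11.8% of all genes were called lower and 9.82% higher. The counts were 21 lower and 11 higher with Cimicifugae (17.5% and 15.1% of all genes), 7 and 2 (WNT5B and FZD8) with Bupleuri (4.01% and 3.01%), 36 and 15 with Aconiti (28.9% and 31.5%), 25 and 13 with Yijung-tang (16.7% and 15.3%) and 21 and 6 with Banhasasim-tang (8.82% and 7.99%). More listed genes were thus called lower than higher with each extract, and the medians over the 70 genes were -0.07, -0.09, -0.04, -0.26, -0.07 and -0.07 in the same order, beside 0.00 to 0.01 over all genes. Against the low dose of the same extract, 23, 17, 7, 37, 20 and 11 were lower, beside 10%, 13.5%, 2.45%, 27.4%, 11.5% and 3.58% of all genes, and 3 (FZD9, DVL2 and KREMEN1), 8, 1 (WNT5B), 14, 9 and 3 (WNT7B, RSPO3 and DKK1) were higher, beside 8.19%, 11.7%, 1.92%, 30.4%, 10.2% and 3.08%.

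Among the 14 tested of 23 listed WNT target genes, 9 were lower with Citri (11.8% of all genes), 10 with Cimicifugae (17.5%), 5 with Bupleuri (4.01%; NKD1, TCF7, TNFRSF19, TCF4 and CCN4), 11 with Aconiti (28.9%), 7 with Yijung-tang (16.7%) and 6 with Banhasasim-tang (8.82%), with median log2 differences of -0.40, -0.36, -0.15, -0.74, -0.24 and -0.11. KREMEN1, a receptor of DKK proteins, was the 1 target called higher with any extract, at 0.25 with Citri, 0.17 with Cimicifugae and 0.33 with Yijung-tang, and it was called lower with Aconiti at -0.19. It was named, like NKD1 and TCF4, after its values were seen. TNFRSF19 and CCN4 were named by their number of calls in the 6 high-dose comparisons with the vehicle. TNFRSF19, a TNF receptor family member and WNT target, was called lower with all 6, from -0.40 with Bupleuri to -1.64 with Aconiti (114 ± 1.76 CPM in the vehicle and 36.6 ± 1.44 with Aconiti, edgeR's adjusted p = 1.85e-29). CCN4, a secreted matrix protein also known as WISP1, fell with Aconiti by -3.26, from 13.5 ± 1.12 to 1.39 ± 0.244 CPM (edgeR's adjusted p = 6.71e-30), by -0.29 to -0.40 with 4 other extracts, and stood at -0.07 with Cimicifugae. Of the 12 tested nuclear genes, TCF7, a TCF factor and itself a listed target, was called lower with 5 extracts, from -0.40 to -0.79, and stood at -0.13 with Banhasasim-tang. TCF7L2, of the same family, was called lower with 5 extracts, from -0.23 to -0.38, and stood at -0.17 with Yijung-tang. Without vehicle replicate 1, CCN4 with Bupleuri (edgeR's adjusted p = 0.0698) and TCF7L2 with Citri (0.0784), Bupleuri (0.0513) and Banhasasim-tang (0.0573) lost their calls. TCF7L2 also lost them without high-dose Citri replicate 1 (0.0769) or 2 (0.0807), Cimicifugae replicate 1 (0.0874) or Banhasasim-tang replicate 2 (0.0614). With Yijung-tang it was called without high-dose replicate 2 (0.0469) and without the 2 libraries that stood apart (0.0193).

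Of the 15 tested frizzleds and co-receptors, FZD1 was called lower with all 6 extracts, from -0.11 with Citri to -0.74 with Aconiti (74.3 ± 1.43 CPM in the vehicle and 44.5 ± 0.645 with Aconiti). FZD8 went the other way, with 5 extracts called higher at 0.22 to 0.40 and Citri at 0.03. In the list as a whole, 4 were lower and 2 higher with Citri (11.8% and 9.82% of all genes), 2 and 4 with Cimicifugae (17.5% and 15.1%), 1 and 1 with Bupleuri (4.01% and 3.01%), 9 and 3 with Aconiti (28.9% and 31.5%), 7 and 3 with Yijung-tang (16.7% and 15.3%) and 6 and 1 with Banhasasim-tang (8.82% and 7.99%). The direction thus differed between extracts. With Cimicifugae FZD1 and ROR1 were lower, and FZD3, FZD8, FZD9 and LRP5 higher. FZD1 and FZD8 were named by their number of calls in the 6 high-dose comparisons with the vehicle. The others were named after their values were seen. WNT5A, a ligand best known for signalling without beta-catenin, was called lower with 5 of 6 extracts, by -0.57 with Aconiti and -0.11 to -0.26 with the other 4 called, and stood at 0.04 with Bupleuri. Its close relative WNT5B was lower with Citri, Cimicifugae and Yijung-tang (-0.49, -0.57 and -0.37) and higher with Bupleuri (0.38). WLS, which carries WNT proteins to the surface, was lower with 4 extracts, from -0.16 to -0.51, and PORCN, the enzyme that attaches their lipid, was called with Aconiti at -0.28 and with no other extract. FZD1 with Citri lost its call without vehicle replicate 1 (edgeR's adjusted p = 0.0597) or 3 (0.0736) or high-dose Citri replicate 2 (0.0909) or 3 (0.0591). FZD8 lost its call without vehicle replicate 1 with Cimicifugae (0.104), Bupleuri (0.0773) and Banhasasim-tang (0.0833), and without the high-dose libraries Cimicifugae replicate 3 (0.0772), Bupleuri replicate 1 (0.0544) or Banhasasim-tang replicate 2 (0.0518). PORCN was called without high-dose Yijung-tang replicate 2 (0.0393) or 3 (0.0455) or Banhasasim-tang replicate 2 (0.0238). WLS with Bupleuri was called without vehicle replicate 2 (0.0349), with the groups fitted alone (0.0174) and without the 2 libraries that stood apart (0.0195). It was also called with a replicate block (0.0371), RLE size factors (0.0485) and DESeq2 (DESeq2's adjusted p = 0.0374).

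RSPO3 was the 1 tested R-spondin of 4, the ligand of the LGR receptors. It was higher with Banhasasim-tang by 0.67, from 2.85 ± 0.592 to 4.50 ± 0.451 CPM (edgeR's adjusted p = 0.000222), and with Citri by 0.38 (0.0491), with the other 4 between -0.23 and 0.14. DKK1, a secreted antagonist of the LRP co-receptors, was lower with Citri, Cimicifugae and Yijung-tang (-0.41, -0.71 and -0.41), and DKK3, of the same family, was higher with Aconiti (0.31) and lower with 3 others, at -0.11 to -0.15. DVL2, which relays the frizzled signal, was higher with 5 extracts, by 0.78 with Aconiti and 0.12 to 0.24 with the others called. CSNK1A1, the kinase that primes beta-catenin for destruction, was higher with Aconiti (0.28) and lower with Cimicifugae, Yijung-tang and Banhasasim-tang (-0.15, -0.23 and -0.16). RSPO3 with Citri lost its call without vehicle replicate 1 (edgeR's adjusted p = 0.219) or 2 (0.203), without high-dose Citri replicate 1 (0.198) or 3 (0.091) and with DESeq2 (0.102). Without high-dose Cimicifugae replicate 3, DKK3 (0.108) and CSNK1A1 (0.347) lost theirs with Cimicifugae, and without Banhasasim-tang replicate 3, DVL2 (0.0707) and CSNK1A1 (0.0555) with Banhasasim-tang. DVL2 was also lost without vehicle replicate 1 with Cimicifugae (0.0582) and Banhasasim-tang (0.134).

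**Figure D4:**
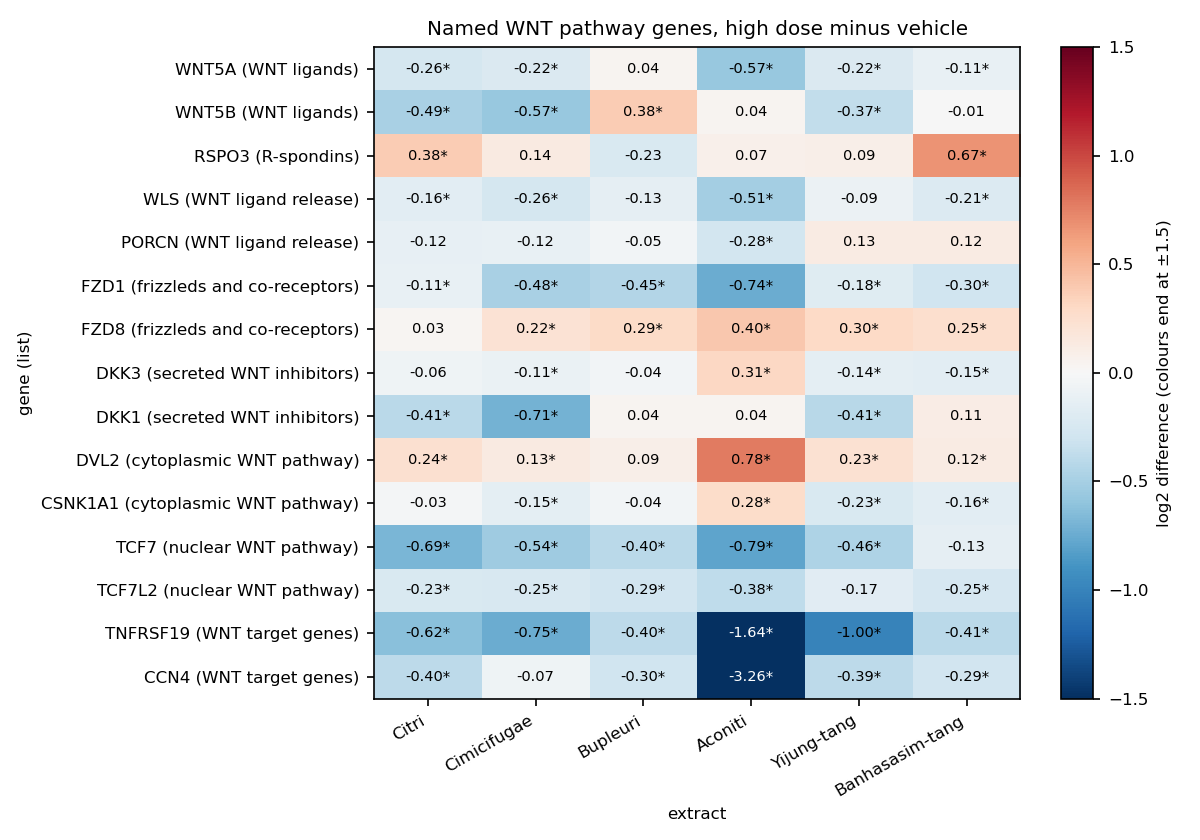
Log2 difference of the high dose from the vehicle (colour, ending at -1.5 and 1.5, and number in each cell) for 15 named pathway genes (rows, with their list) and 6 extracts (columns), where an asterisk marks an adjusted p under 0.05 by edgeR's quasi-likelihood test. TNFRSF19 and FZD1 are called lower in all 6 columns. The genes were picked from their lists by the number of calls in these same columns.

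Genes with a pattern like that of LGR6 were ranked by Pearson's r of mean log2 CPM over the 19 groups, among 11235 genes with a mean of at least 5 CPM. The 5 highest were PADI2 (r = 0.974), F2RL1 (0.962), KIT (0.962), SYT12 (0.946) and PRRX1 (0.943). Their levels in the vehicle and with high-dose Aconiti were 13.9 and 3.38 CPM for PADI2, a peptidyl arginine deiminase, 36.3 and 19.7 CPM for F2RL1, the receptor PAR2, and 57.6 and 27.5 CPM for KIT, the stem cell factor receptor. SYT12, a synaptotagmin, had 7.40 and 1.67 CPM, and PRRX1, a mesenchymal homeobox factor, 129 and 89.4 CPM. The groups share libraries, code sets and normalization, so r is a description. Of the members, LGR4 had r = 0.844 with LGR6 and rank 232, AXIN2 0.766 and rank 779, LGR5 0.469, ZNRF3 0.257 and RNF43 -0.558, where the 5th percentile, median and 95th percentile over all genes ranked were -0.793, -0.085 and 0.792. By Spearman's rho, AXIN2 (0.6947) and LGR4 (0.6895) were nearly level, so the order of these members depends on the measure.

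**Figure D5:**
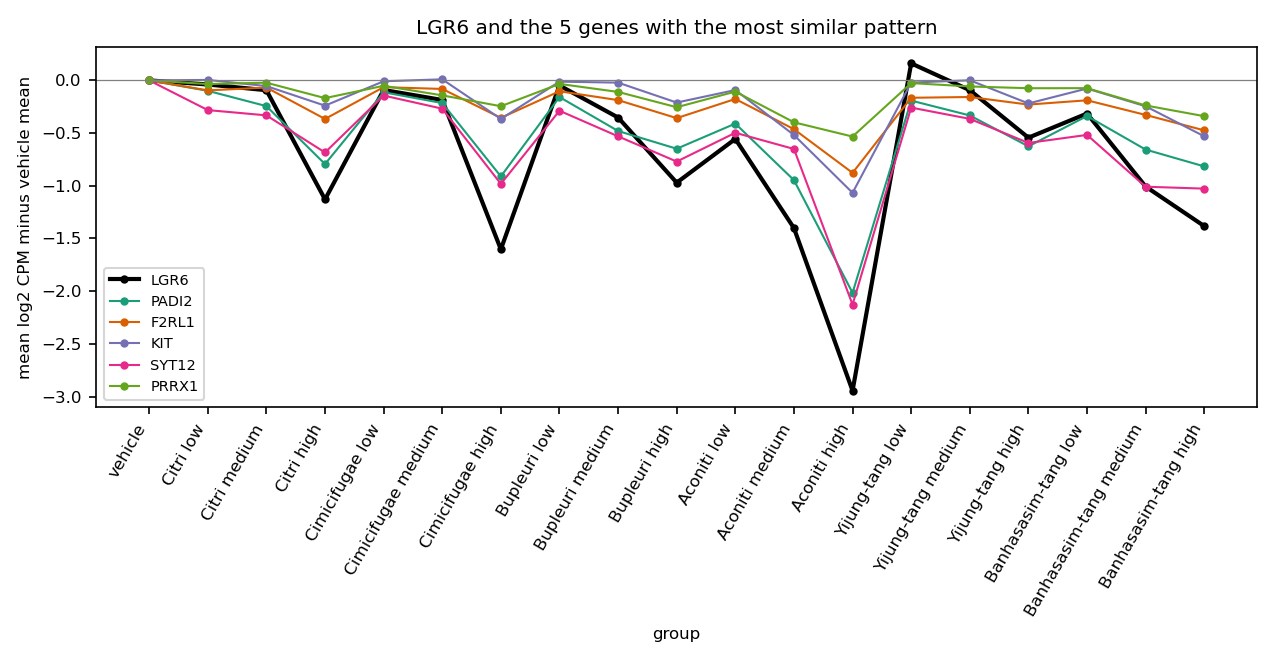
Mean log2 CPM minus the vehicle mean (vertical axis) over 19 groups (horizontal axis) for LGR6 and the 5 genes whose pattern was most like it. The lines join groups for ease of reading only, and LGR6 reaches the lowest value with high-dose Aconiti.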

How the data were processed

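The deposited values of the 60 RNA-seq libraries were RSEM's expected counts (estimated counts per gene) for 60675 genes. The submitters' processing notes name RSEM 1.3.3 and STAR 2.7.3a beside Trim Galore 0.6.5 and FastQC 0.11.9, with the builds GRCh38 and hg38. Per the labels' protocols, total RNA went through a directional MGI kit. Not given in the sources used here were the annotation release, the use of strand and any read filter, and without strand, reads of a gene and of an antisense partner cannot be told apart. Of the deposited expected counts 9.22% were not whole, and all were rounded for the tests.

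Groups came from the sample labels. Genes were kept with filterByExpr by group, scaled by TMM and tested two-sided by quasi-likelihood (glmQLFit, glmQLFTest; edgeR 4.0.16, R 4.3.3) in 1 fit of 57 libraries in 19 groups. In each of 42 comparisons p-values were adjusted by Benjamini-Hochberg over all 17190 genes, with calls under 0.05. Levels are CPM, mean ± SD of 3 libraries, and differences are log2 with an SE. The SE was the absolute log2 difference divided by the square root of the quasi-likelihood F statistic. Intervals of log2 differences are at 95% and were built from that SE. CPM of Bojungikgi-tang used TMM factors over all 60 libraries and had no test. Marker CPM used library totals without TMM factors. Replicate pairs differed by 1.77 to 24 chi-square units per degree of freedom, so each library counted as a replicate. Same-numbered libraries of a code set had a median correlation of deviations of 0.053, 0.048 and 0.074 in sets 5, 6 and 7, and not every pair was over 0.1, so the numbers were not taken as pairs.

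The members, gene lists and tests were chosen with earlier results of these data known. Of each pathway list the text names the 2 genes called in most of the 6 high-dose comparisons with the vehicle, ties by the larger mean absolute log2 difference, and it names the 5 genes with the highest Pearson's r with LGR6. The scripts were tested on simulated data. Alternatives were RLE size factors, CPM without factors, no filter on low counts, DESeq2 1.42.0, fits of the compared groups alone, a replicate block, each library left out, and leaving out the 2 libraries that stood apart. Spearman correlation, code set centring and a mean of 1 CPM were tried for the likeness to LGR6.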

Additional observations from a re-analysis of the deposited data

Results flagged for a closer look

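LGR4 was flagged because its difference of high minus low dose differed between Bupleuri and Aconiti in a test of that difference itself. The value was 0.60 on the log2 scale (edgeR's quasi-likelihood test, Benjamini-Hochberg adjusted p = 6.41e-13), with Bupleuri at -0.06 and Aconiti at -0.67. It stayed between 0.57 and 0.64 when each of the 12 libraries was left out. In the same comparison 44% of all genes were called, so LGR4 is 1 of many genes that differed in this way between the 2 extracts.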

How the results depend on the processing

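For the 5 tested members, 23 calls against the vehicle became 16 to 24 over the alternatives and 18 to 24 with 1 library left out. High against low dose gave 9 calls, 8 to 10 over the alternatives and 8 to 10 with 1 library left out, and medium against low dose gave 1 throughout. Between extracts the 5 calls became 3 when the compared groups were fitted alone and ranged from 4 to 6 with 1 library left out. The cause was not tested. For the difference of high minus low dose between extracts, the 1 call became 2 without the 2 libraries that stood apart, where LGR4 for Yijung-tang against Banhasasim-tang went from an edgeR adjusted p of 0.0669 to 0.037. With 1 library left out it ranged from 1 to 2: LGR4 for this pair was called without high-dose Yijung-tang replicate 2 (0.0187), low-dose Yijung-tang replicate 2 (0.0498) or low-dose Banhasasim-tang replicate 2 (0.0466), and AXIN2 for Bupleuri against Aconiti without high-dose Aconiti replicate 3 (0.0292). The cause was not tested.

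Groups with LGR6 wholly below the vehicle numbered 11, and 11 to 16 with 1 library left out. At given levels, leaving out a library can only add such groups, so the lower end of this range is no check. Of the 5 genes most like LGR6, Spearman correlation ranked 3 and centring by code set 4 among its own 5. The other WNT pathway genes gave 183 calls against the vehicle (163 to 192 over the alternatives, 155 to 184 with 1 library left out) and 153 against the low dose (122 to 162, and 144 to 154). Of 39 single results called, 9 lost the call without a filter on low counts, 8 with the groups fitted alone, 4 of 37 with DESeq2 and 12 with 1 library or another left out, and no direction reversed. Of 64 calls of the named pathway genes, 6 were lost without a filter on low counts, 6 with the groups fitted alone, 3 without the 2 libraries that stood apart, 1 with DESeq2 and 15 with 1 library or another left out.

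Within code sets 5, 6 and 7, the deviations of same-numbered libraries had a median correlation of 0.053, 0.048 and 0.074 (17, 11 and 20 of 45 pairs over 0.1), beside -0.031, -0.010 and -0.042 for different numbers (7, 3 and 10 of 90 pairs). Same numbers thus deviated together slightly more, a hint from the data, but most pairs were under 0.1 and the labels name nothing shared. With a replicate block, calls against the vehicle were 24, high against low dose 10, medium against low dose 1, and between extracts 5, and none of the 39 single calls was lost. Over all genes the block moved low-dose Bupleuri against the vehicle from 13 to 26 calls and low-dose Citri against Cimicifugae from 28 to 144. RNF43 became called for high against low Citri (0.0367, from 0.0519) and for high-dose Yijung-tang against the vehicle (0.0474, from 0.0753). LGR5 rested on 3 to 18 counts per library.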
